A study of Arabidopsis thaliana with 12 samples.

Results

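The regulator of the Arabidopsis ER body system and a pair of its beta-glucosidases were followed across the series, namely the regulator gene NAI1 (AT2G22770) and the beta-glucosidase genes PYK10 (AT3G09260, also named BGLU23) and BGLU19 (AT3G21370). Each has 1 probe, so they are 3 of the 9236 genes with a probe of their own and 3 of the 21500 probes on the array. They were taken by the gene name in the array's probe list, and they were chosen on their log ratios on all 12 arrays, so those ratios are given as a description with no test. Each array set RNA from the aerial parts of Arabidopsis plants transformed with a rice full-length cDNA, labelled with Cy3, against RNA from wild-type Col-0, labelled with Cy5. The 6 lines are named by their clone (AK065297, AK069096, AK073112, AK073210, AK073675 and AK102323) and have 2 replicate arrays each. The growth conditions were the same for every group, 22 °C and days of 16 h light. The promoter in front of the cDNA, what the cDNA encodes, the plants' age and whether 1 or several transformants were used per line are not stated in the labels.

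ER bodies are spindle-shaped compartments that bud from the endoplasmic reticulum in Arabidopsis and its relatives and store beta-glucosidases. NAI1 is a basic helix-loop-helix transcription factor that seedlings need to form ER bodies and to express PYK10. PYK10 is the main ER body enzyme of seedlings and roots and can cleave indole glucosinolates, the tryptophan-derived defence compounds of the family, when tissue is damaged. BGLU19 belongs to the same group of beta-glucosidases. In rosette leaves ER bodies are scarce until wounding or jasmonate induces them, and there the related enzyme BGLU18 is the typical content.

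Values are log2 ratios computed from the deposited log ratios, which were read as base 10. Which sample stands on top of the ratio is not settled, so a value is said to lie on the positive or the negative side and never to be higher in the transformant or in Col-0. All arrays were labelled the same way, with no dye swap. A difference between the dyes for a probe therefore stays in every mean against Col-0, and cancels between lines. It also stays in the side of 0 on which a value lies and in its distance from 0. Correlations over probes between arrays of different lines ran from 0.115 to 0.816, and none was negative. Whether 2 genes lie on the same side, and how they vary together, does not depend on the direction. The replicates of AK073112 correlated at 0.352, while those of the other lines reached 0.586 to 0.805. The highest correlation between arrays of different lines, 0.816, was thus above that of any replicates. Where leaving out both AK073112 arrays changed a call, the changed call is given as well, and so are some of the changed values. List calls, likeness and correlations over arrays without them are settings chosen after seeing the data, except for the counts of the ER body list. The ratios hold no level in either sample, so the level of a gene in a line and the order of levels between genes were not measured.

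NAI1 lay on the positive side of the ratio on 11 of 12 arrays, BGLU19 on the negative side on 7, with 3 arrays at exactly 0, and PYK10 on either side, with 6 arrays each way. The mean over the 6 lines was 0.65 ± 0.11 for NAI1 (SE of the fit, n = 12 arrays), -0.75 ± 0.10 for BGLU19 and -0.15 ± 0.20 for PYK10. Without both AK073112 arrays these means were 0.67, -0.72 and -0.14. The regulator and the glucosidases thus had a pattern each. Only in AK073675 did the means of all 3 genes lie on the same side of 0, with all 6 values positive but those of BGLU19 at 0.09 and 0.18.

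**Figure D1:**
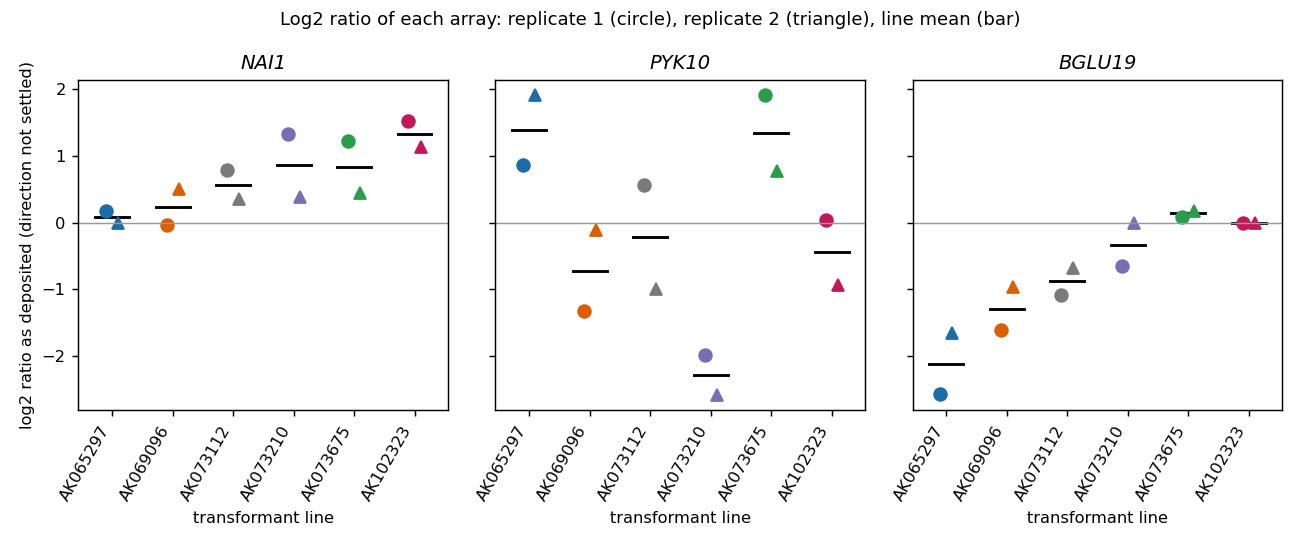
Log2 ratio as deposited (vertical axis) of NAI1, PYK10 and BGLU19 on each array, by transformant line (horizontal axis), with replicate 1 as a circle, replicate 2 as a triangle and the mean of the 2 arrays as a bar. NAI1 stays between -0.04 and 1.52, PYK10 runs from -2.59 to 1.92, and BGLU19 from -2.57 to 0.18.

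The regulator NAI1 had its highest ratio in AK102323, with 1.52 on replicate 1 and 1.14 on replicate 2. AK073210 followed with 1.33 and 0.38, and AK073675 with 1.23 and 0.45. These 3 lines had the highest means, and their replicates overlapped. AK073112 had 0.79 and 0.35, AK069096 -0.04 and 0.51, and AK065297 0.18 and a value that rounds to 0.00. No neighbours in this order were separated by their replicates. Over all 15 pairs of lines the replicates were separate in 6.

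In line means NAI1 ran from 0.09 ± 0.13 (SD, n = 2 arrays) in AK065297 to 1.33 ± 0.27 (n = 2) in AK102323. That range of 1.24 corresponds to a 2.36-fold change of the ratio and stands beside a largest gap between replicates of 0.95, in AK073210. Of all probes 88.3% had a smaller range of line means, and the median over all probes was 0.55. On AK102323 replicate 1 only 0.386% of probes lay above NAI1, while on AK065297 replicate 2 49.8% did. On the other array of these lines the share above NAI1 was 1.3% in AK102323 and 24.9% in AK065297. NAI1 was thus near the top of the probes on both AK102323 arrays, and in their middle on only 1 array of AK065297.

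PYK10 spread much more widely than its regulator. On the positive side were AK065297, with 0.87 on replicate 1 and 1.91 on replicate 2, and AK073675, with 1.92 and 0.78. On the negative side were AK073210, with -1.99 and -2.59, and AK069096, with -1.33 and -0.11. In AK073112 (0.57 and -1.0) and AK102323 (0.04 and -0.93) the replicates fell on opposite sides of 0. Lines with both arrays positive and lines with both negative therefore existed side by side for this gene. Such opposite lines were also found for BGLU19 and not for NAI1, and 36.7% of all probes have at least 1 line of each kind.

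The line means of PYK10 formed 3 steps. AK065297 (1.39 ± 0.73, SD, n = 2) and AK073675 (1.35 ± 0.81, n = 2) did not differ beyond their spread. AK073112 (-0.21), AK102323 (-0.44) and AK069096 (-0.72) overlapped one another and lay below both. AK073210 (-2.29 ± 0.43, n = 2) lay below all others. The replicates were separate at each of these steps, where the mean fell by 1.57 to the next line, and in 11 of 15 pairs of lines. The range of 3.68 between AK065297 and AK073210 is a 12.8-fold change of the ratio, and 99.7% of all probes had a smaller one. The replicate spread of PYK10 was large too, with a pooled SD of 0.80, larger than that of 98% of probes, and a largest gap of 1.58 in AK073112.

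On single arrays PYK10 came close to both ends of the distribution. On AK073210 replicate 2 only 0.0698% of probes lay below it. On AK065297 replicate 2 only 0.191% lay above it. The same gene thus stood among the outermost probes of the array on opposite sides in different lines.

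BGLU19 was farthest from 0 in AK065297, with -2.57 on replicate 1 and -1.66 on replicate 2. AK069096 had -1.61 and -0.97, and AK073112 had -1.09 and -0.68. All 6 of these arrays were negative. AK073210 had -0.65 on replicate 1 and exactly 0 on replicate 2, AK102323 exactly 0 on both arrays, and AK073675 0.09 and 0.18. An exact 0 was also listed for between 2.92% and 9.43% of probes per array. It may stand for a spot without a usable signal, which was not tested, so a 0 is not read here as an unchanged ratio.

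In line means BGLU19 ran from -2.12 ± 0.64 (SD, n = 2) in AK065297 to 0.14 ± 0.06 (n = 2) in AK073675. The replicates were separate between AK065297 and AK069096 (-1.29), between AK073112 (-0.88) and AK073210 (-0.33), and between AK102323 and AK073675. They overlapped between AK069096 and AK073112 and between AK073210 and AK102323. AK073112 and AK073210 were only just separate, with their nearest arrays at -0.68 and -0.65, and the mean of AK073210 includes an exact 0. In all, 13 of 15 pairs of lines were separate, some of them only because AK102323 was listed at 0 on both arrays. The range of 2.25, a 4.76-fold change of the ratio, was larger than in 98.3% of all probes. The largest replicate gap was 0.91, in AK065297, and the pooled replicate SD was 0.39. With exact zeros as missing, AK102323 has no value and the mean of the other lines was -0.96.

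Across the 6 line means NAI1 and BGLU19 ran in a similar order along the deposited scale. AK065297 was lowest for both, followed by AK069096 and AK073112, and AK073210, AK073675 and AK102323 were the upper lines for both. Pearson's r was 0.90 and Spearman's rho 0.83 (n = 6 lines), and r was 0.92 without AK065297 and AK102323, the lines farthest from the median of NAI1. With exact zeros as missing it was 0.91 over the lines left, with quantile normalization 0.80, and without both AK073112 arrays 0.90. Over the 12 arrays r was 0.62 and rho 0.61. The points share Col-0, the dyes and, within a line, the plants' genotype. Each pair of r and rho here describes 1 of a few relations among genes chosen on these values, and no p is given. Because NAI1 lay above 0 and BGLU19 below it, the genes were on the same side on only 3 arrays and on opposite sides on 6, with 3 at 0. The BGLU19 ratio was thus nearest to 0, exact zeros included, in the lines where NAI1 was farthest from 0. These sides and distances from 0 cannot be told apart from a dye effect common to all arrays.

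Replicates of a line gave another picture. NAI1 and BGLU19 differed between replicates 1 and 2 in the same direction in 1 line, AK069096, in opposite directions in 4, and in AK102323 BGLU19 was at 0 on both arrays. The differences correlated with r = 0.32 and rho = 0.14 (n = 6 lines). Both values depend on which array of a line is numbered 1, so they do not show the direction of the relation. The counts of lines do not depend on it.

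PYK10 did not follow NAI1 over the lines. Over the 6 line means r was -0.31 and rho -0.49, and r was 0.03 without AK065297 and AK102323 and -0.32 without AK073112. Over the 12 arrays r was -0.05 and rho 0.00. The genes lay on the same side on 7 arrays and on opposite sides on 5. AK065297 had the lowest NAI1 mean (0.09) and the highest PYK10 mean (1.39), and AK073210 had the second highest NAI1 mean (0.86) and the lowest PYK10 mean (-2.29). AK073675 held almost the NAI1 value of AK073210 (0.84) with PYK10 at 1.35. The same NAI1 ratio therefore went with PYK10 at both ends of its range.

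Between replicates the same genes behaved otherwise. In 5 of 6 lines the array with the higher NAI1 ratio also had the higher PYK10 ratio, AK065297 being the exception. The differences of replicate 1 minus replicate 2 correlated with r = 0.73 and rho = 0.60 (n = 6 lines). As above, these values depend on the numbering of the arrays, and the count of lines does not. The labels do not say how the 2 arrays of a line differ, and the part of such differences was not tested.

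The glucosidases did not follow each other over the lines either. Over the 6 line means PYK10 and BGLU19 had an r of -0.27 and a rho of -0.14, and r was again -0.27 without AK073112. Without AK065297 and AK073210, the lines farthest from the median of PYK10, r was 0.67, so the sign rests on those lines. They were on the same side on 6 arrays and on opposite sides on 3. AK065297 set them farthest apart, with PYK10 at 1.39 and BGLU19 at -2.12. In AK073210 it was PYK10 that stood far on the negative side (-2.29) and BGLU19 that was close to 0 (-0.33). The differences of replicate 1 minus replicate 2 correlated with r = 0.72 and rho = 0.60 (n = 6 lines), but these values too depend on the numbering. The differences had the same sign in only 2 lines and opposite signs in 3, with BGLU19 at 0 on both arrays of AK102323.

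**Figure D2:**
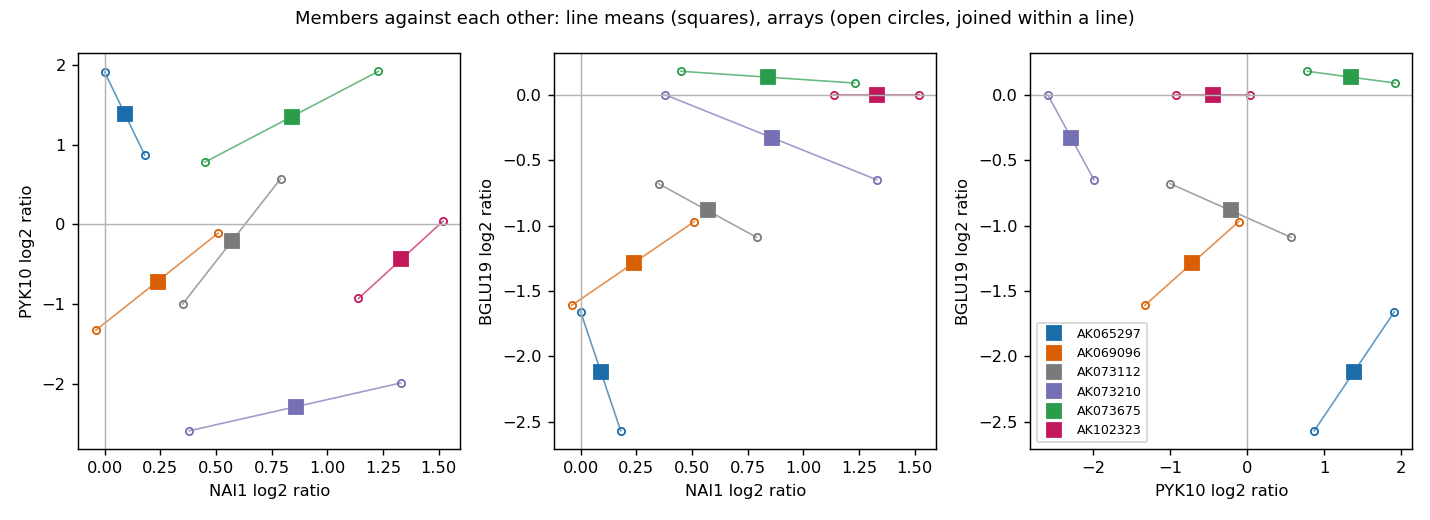
Log2 ratios of NAI1 against PYK10 (left), NAI1 against BGLU19 (middle) and PYK10 against BGLU19 (right), with line means as filled squares and the 2 arrays of each line as open circles joined by a line. Line means of NAI1 and BGLU19 run together (r = 0.90), those of NAI1 and PYK10 do not (r = -0.31), and the line joining the arrays slopes upward for NAI1 and PYK10 in 5 of 6 lines.

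Other genes of the ER body and of the PYK10 complex, the aggregate that PYK10 forms with lectins and lipase-like proteins in broken cells, were read from a list of 20. Of these, 12 had a named probe, with 13 probes in all. BGLU18, the ER body protein gene TSA1, the ER body membrane genes MEB1 and MEB2, the lectin genes PBP1 and JAL35 and the lipase-like genes GLL22 and GLL25 were not analysed here. For the mean of all 6 lines against Col-0, 1 of 13 probes passed on the positive side and 4 on the negative side (limma, adjusted p under 0.05). Calls against Col-0, here and below, cannot be told apart from a dye effect common to all arrays. The background was 26.4% of all probes on the positive side and 24.5% on the negative side. The list's share was thus under the background on the positive side and slightly over it on the negative side, on only 13 probes. The negative count includes both probes of JAL34, the only gene of the 12 with more than 1 probe, so by genes no excess is read. The list's median was -0.11, against 0.01 for all probes.

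The list's genes on the negative side were BGLU21, NAI2 and JAL34. BGLU21, a root beta-glucosidase gene closely related to PYK10, had a mean of -0.66 ± 0.14 (SE, n = 12 arrays, limma adjusted p = 0.00611) and was negative on 11 arrays. Its lowest arrays were AK065297 replicate 2 (-1.75), where PYK10 was at 1.91, and AK073210 replicate 2 (-1.50), where PYK10 was at -2.59. NAI2, whose protein is needed to form ER bodies, had a mean of -0.25 ± 0.07 (n = 12, limma adjusted p = 0.0178) and was negative on 10 arrays. JAL34, a jacalin-related lectin gene, passed on both of its probes, with means of -0.44 and -0.12 (limma adjusted p = 0.00828 and 0.0343). The call of the second probe was lost in 8 of the 12 fits that left out a single array: either array of AK065297, AK069096 or AK073675, AK073210 replicate 1, or AK102323 replicate 2. The lectin gene JAL33 was the one on the positive side, at 0.51 ± 0.08 (n = 12, limma adjusted p = 0.00132), positive on 11 arrays.

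The other 8 probes did not pass. They stood at -0.32 for the lipase-like gene GLL23, at -0.17 and -0.06 for the lectin genes JAL23 and JAL22, at -0.11 for BGLU22 and BGLU24, at -0.04 for BGLU25, at -0.03 for BGLU20 and at 0.02 for JAL31. BGLU24 and JAL31 were listed at exactly 0 on 11 and 10 arrays. BGLU20, known as the anther gene ATA27, ran from -4.88 on AK073675 replicate 1 to 2.89 on AK073112 replicate 2, with the replicates of AK073675 and AK102323 on opposite sides. The list's count rested in part on single arrays. It fell to 3 without AK102323 replicate 2, where NAI2 and the second JAL34 probe no longer passed, and was 7 without both AK073112 arrays, where JAL23 and GLL23 passed as well (1 positive and 6 negative, beside a background of 29% and 26.6%).

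In the F test between the 6 lines, 3.36% of all probes passed and 0 of the 13 list probes did (limma). At an unadjusted p under 0.05 there was 1 of 13, JAL23, against 22.6% of all probes. The counts depended on AK073112, for the list and for all probes. Without both of its arrays 1 list probe passed, NAI2, beside 15.3% of all probes. NAI2 also passed alone without AK073112 replicate 1, beside 19% of all probes, and without replicate 2 there were 2, NAI2 and GLL23, beside 26%. These list counts are below the background. Without AK073210 replicate 1 BGLU24 passed, a probe at exactly 0 on every array then left except AK073210 replicate 2, beside 0.917% of all probes.

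**Figure D3:**
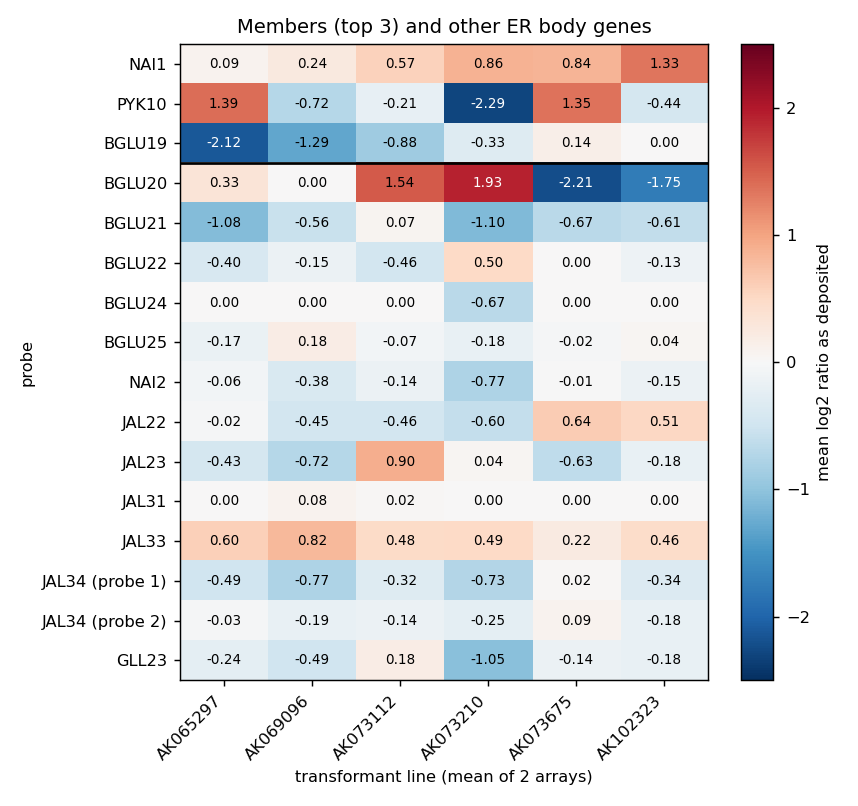
Mean log2 ratio as deposited of the 2 arrays of each line (columns) for NAI1, PYK10 and BGLU19 (above the black line) and the 13 other ER body and PYK10 complex probes (below it), with the value in each cell. NAI2 is lowest in AK073210 (-0.77), where PYK10 is lowest too (-2.29), while JAL33 lies on the positive side in all 6 lines (0.22 to 0.82).

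Among the 1315 other probes with a gene symbol, NAI2 was second in likeness to PYK10 over the 12 arrays (r = 0.86). Its values were -0.79 and -0.74 in AK073210, -0.48 and -0.28 in AK069096, 0.27 and -0.55 in AK073112, -0.02 and -0.28 in AK102323, -0.05 and -0.07 in AK065297, and 0.07 and -0.08 in AK073675. NAI2 was thus most negative in AK073210, where PYK10 was too, and between -0.08 and 0.07 in AK065297 and AK073675, where PYK10 was positive on both arrays. On AK073112 replicate 1, where PYK10 was 0.57, it had its highest value of 0.27. Over the 6 line means r was 0.92 and rho 0.94, and r was 0.82 without AK065297 and AK073210. Replicates 1 and 2 differed in the same direction for NAI2 and PYK10 in 4 of 6 lines, and in opposite directions in AK065297 and AK073210. Without both AK073112 arrays, a setting chosen after seeing the data, r over the arrays was 0.92. The size differed: the line means of NAI2 ranged over 0.76 and those of PYK10 over 3.68. NAI2 did not follow NAI1 (r = -0.09 over line means) or BGLU19 (r = -0.11).

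**Figure D4:**
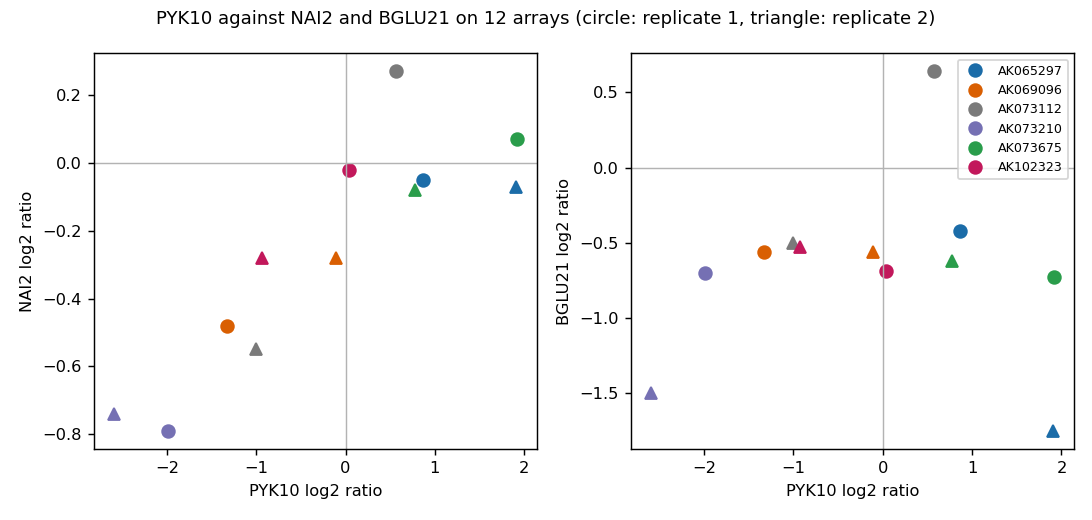
Log2 ratio of PYK10 (horizontal axes) against NAI2 (left) and BGLU21 (right) on the 12 arrays, coloured by line, with replicate 1 as a circle and replicate 2 as a triangle. NAI2 runs from 0.27 to -0.79 and is lower on the arrays where PYK10 is lower (r = 0.86), and BGLU21 shows no such order (r = 0.07).

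The probe nearest to PYK10 was ATBCAT-5, a branched-chain aminotransferase gene (r = 0.87), and the third was CSLA03, a gene of the cellulose synthase-like family (r = 0.84). Their line means ran only from -0.27 to 0.07 and from -0.62 to -0.11, beside -2.29 to 1.39 for PYK10. The lowest of the 1315 was BZIP28, a membrane-bound transcription factor of the ER stress response (r = -0.86), with line means between -0.07 in AK073675 and 0.30 in AK073210. Without both AK073112 arrays NAI2 was the most like PYK10 (r = 0.92), ATBCAT-5 the second (0.89) and CSLA03 the fifth (0.86), while BZIP28 ranked 1307 of 1314 (-0.86). The other 12 probes of the ER body list had an r with PYK10 on both sides of 0 over the 12 arrays. It was 0.81 and 0.64 for JAL34, 0.68 for GLL23, 0.58 for JAL22 and 0.53 for BGLU24, which is at 0 on 11 arrays. It was 0.07 for BGLU21 and BGLU25, 0.04 for JAL31 and JAL33, -0.15 for JAL23, -0.34 for BGLU22 and -0.55 for BGLU20. Without AK073112 the value of GLL23 was 0.84 and that of JAL23 -0.36, and BGLU21, a close relative of PYK10, had -0.03. Probe sequences were not analysed here, so whether the probes of these related genes also bind one another's transcripts was not tested.

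For BGLU19 the nearest probes were scpl16, a serine carboxypeptidase-like gene (r = 0.83), PDC3, a pyruvate decarboxylase gene (r = 0.81), and PHYLLO, a gene of phylloquinone synthesis (r = 0.75). All 3 were negative in AK065297 (-1.68, -1.38 and -1.29), AK069096 and AK073112 and between 0.00 and 0.46 in the other lines. PDC3 and PHYLLO had means of 0.00 in AK073210 and AK073675, and BGLU19 was at exactly 0 on 3 arrays. These r thus rest in part on values at or near 0, and likeness with exact zeros as missing was not computed. The lowest was PSD, a tRNA export receptor gene (r = -0.88), with line means only between -0.17 and 0.18. NAI1 ranked 18 of 1315 in likeness to BGLU19, and PYK10 ranked 1016. Without AK073112 the 3 nearest probes kept their order (r = 0.91, 0.84 and 0.84), PSD was again the lowest, and NAI1 ranked 28 of 1314.

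For NAI1 the nearest were LPR2, a multicopper oxidase gene of the phosphate response of roots, ZCF37, and BUB3.2, a homologue of a spindle checkpoint gene, each with r = 0.82. The lowest was UBP15, a ubiquitin protease gene (r = -0.80). Line means ran only from -0.11 to 0.25 for LPR2 and from 0.08 to 0.24 for UBP15, beside 0.09 to 1.33 for NAI1. Those of ZCF37 (-1.33 to -0.20) and BUB3.2 (-1.02 to 0.03) ran more widely. BGLU19 ranked 46 of 1315 in likeness to NAI1 and PYK10 ranked 739. Without AK073112 ZCF37 was the nearest (r = 0.91), LPR2 and BUB3.2 ranked 4 and 5, UBP15 ranked 1311 of 1314, BGLU19 58 and PYK10 798. The bHLH genes related to NAI1 that have a probe, BHLH18 (-0.10) and BHLH25 (-0.01), did not pass against Col-0 or between lines.

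Among the 15 other probes with a BGLU symbol, 4 of which are in the ER body list, 2 passed on the positive side against Col-0 and 5 on the negative side (limma), beside 26.4% and 24.5% of all probes. The positive ones were BGLU46 (0.65) and BGLU47 (0.56), the former a monolignol glucosidase gene. The negative ones were BGLU16 (-1.13), BGLU44 (-0.75), BGLU21, BGLU45 (-0.39) and BGLU40 (-0.38). Between lines 0 of 15 passed in the F test, beside 3.36% of all probes, and 2 had an unadjusted p under 0.05, BGLU46 and BGLU33, beside 22.6%. Without AK073112 the counts against Col-0 were again 2 and 5, beside 29% and 26.6% of all probes, and between lines 4 of 15 passed, BGLU16, BGLU40, BGLU46 and BGLU47, beside 15.3% of all probes. The range of line means was 2.43 for BGLU46 and at most 1.68 for the others with a BGLU symbol, while PYK10 had 3.68 and BGLU19 2.25. BGLU20, whose current symbol is ATA27, had a larger range than any of them, 4.13, with a pooled replicate SD of 2.45.

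The pathways around ER bodies were hardly covered. Of 18 indole glucosinolate genes only UGT74B1, which adds the glucose in glucosinolate synthesis, had a named probe. It had a mean of -0.53 ± 0.05 (n = 12, limma adjusted p = 0.000139) and an r of -0.07 with PYK10. Of 14 jasmonate and wound genes there were 2. The thionin gene THI2.1 passed on the positive side as a mean of all lines (0.25, limma adjusted p = 0.0222) and between lines (limma adjusted p = 0.0102), with 2.58 in AK073210 and -0.80 to 0.27 in the other lines. Without AK073112 both calls stood (limma adjusted p = 0.00868 and 0.00526). The defensin gene PDF1.2 passed neither as a mean of all lines (0.42, limma adjusted p = 0.311) nor between lines (limma adjusted p = 0.12). It had 5.88 and 2.52 in AK073112 and -1.53 and 0.37 in AK073210, and without AK073112 its mean over the lines was -0.34. In AK073210, the line with PYK10 farthest on the negative side, THI2.1 was thus far on the positive side and PDF1.2 was not, and their r with PYK10 over the 12 arrays was -0.56 and 0.00.

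Since PYK10 is expressed mainly in roots and hypocotyls, root genes were read beside it. Of 15 only the root hair expansin genes EXPA7 and EXPA18 had a named probe, with an r of 0.20 and -0.29 with PYK10. EXPA18 passed on the positive side against Col-0 (0.48 ± 0.11, n = 12, limma adjusted p = 0.00732), positive on 10 arrays, and EXPA7 did not pass (-0.22, limma adjusted p = 0.372), beside 26.4% of all probes on the positive side. In AK073210 EXPA7 had -1.45 and 0.65 and EXPA18 1.29 and 0.10, so the replicates of this line differed for both while those of PYK10 were -1.99 and -2.59. The photosynthesis genes LHCB4.1, PSAN, LHCB4.2 and PSAE-1 had an r with PYK10 between 0.48 and 0.65 and passed on the negative side against Col-0, so 4 of the 5 leaf genes measured did, beside 24.5% of all probes. The fifth, the Rubisco activase gene RCA, did not pass (-0.04, limma adjusted p = 0.723) and had an r of -0.26. Without both AK073112 arrays the r with PYK10 was 0.88 for LHCB4.1, 0.61 for PSAN, 0.52 for LHCB4.2, 0.48 for PSAE-1 and -0.42 for RCA. Between lines 0 of 5 passed, and without AK073112 these same 4 did, beside 15.3% of all probes. The part of tissue makeup in the PYK10 ratios was not tested. In bulk RNA, fewer cells of a type and less RNA per cell cannot be told apart.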

How the data were processed

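The authors deposited 1 log ratio for each of 21500 probes on each of 12 Agilent arrays with 2 dyes. Per the submitters' processing notes the program was Agilent Feature Extraction, version 7.1.1. The deposited values were read as log10, since they look like that program's log ratio column, and were put on the log2 scale. Neither the base, the direction nor the background and dye steps are stated in the files or labels. Lines came from the titles, because every description names AK069096. Symbols were updated by gene ID to TAIR10.1; 9335 probes have 1 gene, 40 several and 12125 none.

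limma 3.58.1 (R 4.3.3) fitted a mean per line on the 21494 probes with all values and a spread shared by the lines (6 residual and 1.88 prior degrees of freedom). The two-sided tests were the mean of the 6 lines against 0 and an F test between lines, with p-values adjusted over all probes by Benjamini and Hochberg and a threshold of 0.05. The fit was tested on simulated data. The labels do not say that replicates are separate plants, so p-values measure the spread between arrays, whose number limits the precision. The members and lists were chosen with earlier results of these data known. Likeness was Pearson's r over the 12 arrays, naming the 3 highest probes and the lowest with a symbol; any measured list gene could be named. Alternatives were quantile normalization, exact zeros as missing, the replicate block, and arrays left out.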

Additional observations from a re-analysis of the deposited data

Results flagged for a closer look

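PYK10 had both arrays positive in AK065297 and AK073675 and both negative in AK069096 and AK073210, with 3.68 between the highest and the lowest line mean. BGLU19 had both arrays positive in AK073675 and both negative in AK065297, AK069096 and AK073112, with 2.25 between the extremes. For both genes the difference between lines was not tested, because they were chosen on these ratios. THI2.1, read as a jasmonate gene, differed between the lines in limma's F test (adjusted p = 0.0102), with both AK073210 arrays at 2.53 or more. Lines of 2 arrays are too small for a test of outlying arrays.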

How the results depend on the processing

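The means of NAI1, PYK10 and BGLU19 kept their side in every setting tried (quantile normalization, exact zeros as missing, without both AK073112 arrays, and each array left out) and moved by less than the SD of the line means. The PYK10 mean stayed near 0, from -0.28 to -0.02 with single arrays left out. The correlation of NAI1 and PYK10 over line means, -0.31, was -0.18 with quantile normalization and ran from -0.53 to 0.03 with single arrays left out, the change of side coming without AK073210 replicate 1. That of NAI1 and BGLU19 ran from 0.72 to 0.96. That of PYK10 and BGLU19, -0.27, was -0.12 with exact zeros as missing and ran from -0.37 to -0.14. The ER body list's 5 probes against Col-0 ran from 3 to 7 over all settings (3 to 6 with single arrays left out), and its 0 between lines from 0 to 2, with 1 without both AK073112 arrays. Over all probes 722 passed between lines, 413 with the replicate block, 479 with exact zeros as missing (where fewer probes are tested), 3290 without both AK073112 arrays, and from 136 (without AK102323 replicate 1) to 5593 (without AK073112 replicate 2) with single arrays left out. Whether the replicate numbers pair the arrays is not stated in the labels. Same-numbered deviations correlated only weakly, at -0.07 to 0.17 over 15 pairs of lines, and over 0.1 in 2. Without both AK073112 arrays the 3 correlations were -0.32, 0.90 and -0.27. The block changed neither list count. The other causes were not tested.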
